A study of Homo sapiens with 6 samples.

Results

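The genes described here are 38 output, AP-1 and feedback genes of the MAPK (mitogen-activated protein kinase) pathway, out of 27734 genes with a symbol in the authors' deposited table. They were listed by name: 10 dual-specificity phosphatases, 6 Sprouty and SPRED inhibitors, 3 ETS factors, 6 AP-1 subunits, 7 immediate early genes of the EGR, IER and PHLDA1 kinds, 4 KLF factors, and CCND1 with MYC. RNA was sequenced from U87, an established human glioblastoma cell line, with 3 libraries in the group EGFR+vIII and 3 in the group EGFR+vIII TLR2 KO. Both groups carry EGFR, the epidermal growth factor receptor, together with vIII, a deletion mutant that signals without ligand, and they differ by the knockout (KO) of TLR2, a cell surface receptor of innate immunity. The sources used here do not say how the receptors were introduced, how the knockout was made or whether it is 1 clone.

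EGFR signals through RAS, RAF, MEK and ERK. Active ERK switches on immediate early genes such as FOS and EGR1 through factors already present in the nucleus, and later raises its own inhibitors: phosphatases that take phosphate off ERK, and Sprouty and SPRED proteins that act upstream at RAS and RAF. The levels of DUSP4, DUSP5, DUSP6, SPRY2, SPRED1, ETV5, PHLDA1 and CCND1 are therefore often read as a trace of ERK output. Those of FOS, JUN, EGR1 and the IER genes also respond to stress kinases and to inflammatory signals. The genes named here did not all move the same way in the results that follow.

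The authors' deposited table holds 1 line per RefSeq transcript and no value per library, so spread is given as the standard error (SE) of the log2 fold change. The base mean is the mean over the 6 libraries of read counts after scaling for depth, and fold changes are read as knockout over EGFR+vIII because the table names its groups in that order. TLR2 has 8 accessions in the authors' deposited table, all 8 listed at 0, so TLR2 itself gives no check of the labels or of this order. VIM, a filament protein of glioma cells, had a base mean of 126476 in the authors' deposited table, and the astrocyte markers GFAP, S100B, FABP7 and AQP4 were listed at 0. Of 5 tested glioma and astrocyte markers, the authors' deposited table calls 1 higher and 2 lower. It lists SOX2, a stem cell factor, at -2.45 (log2, SE 0.30) with a base mean of 69.0. NES, a progenitor filament, is at 1.01 (SE 0.12) and VIM at -0.29 (SE 0.08). CD44 (-0.30, SE 0.35) and OLIG2 (-0.18, SE 0.29) were not called. The part of these markers in the results that follow was not tested. Markers of leucocytes, endothelium, epithelium and neurons summed to base means of 45.1, 730.0, 37.0 and 90.2 by the authors' deposited table, and none was called higher or lower by DESeq2, with 1, 1, 0 and 0 genes at an unadjusted p under 0.05. In bulk RNA, fewer cells expressing a gene and less RNA per cell cannot be told apart.

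Genes of the set moved both ways. Of the 24 tested members, 8 rose and 7 fell at an adjusted p under 0.05 in the authors' deposited table, and 9 were not called. DUSP5, DUSP7, DUSP10, FOS, JUNB, EGR1, IER2 and KLF2 were higher in the knockout. DUSP4, DUSP6, SPRY2, SPRED1, ETV5, JUN and PHLDA1 were lower. Calls covered 23.5% of all 10303 tested accessions of the authors' deposited table, with 11.6% higher and 11.9% lower. Taking 1 accession per gene, 25.1% were called. The median log2 fold change of the tested members was 0.12 and that of all tested accessions 0.02 in the authors' deposited table.

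**Figure D1:**
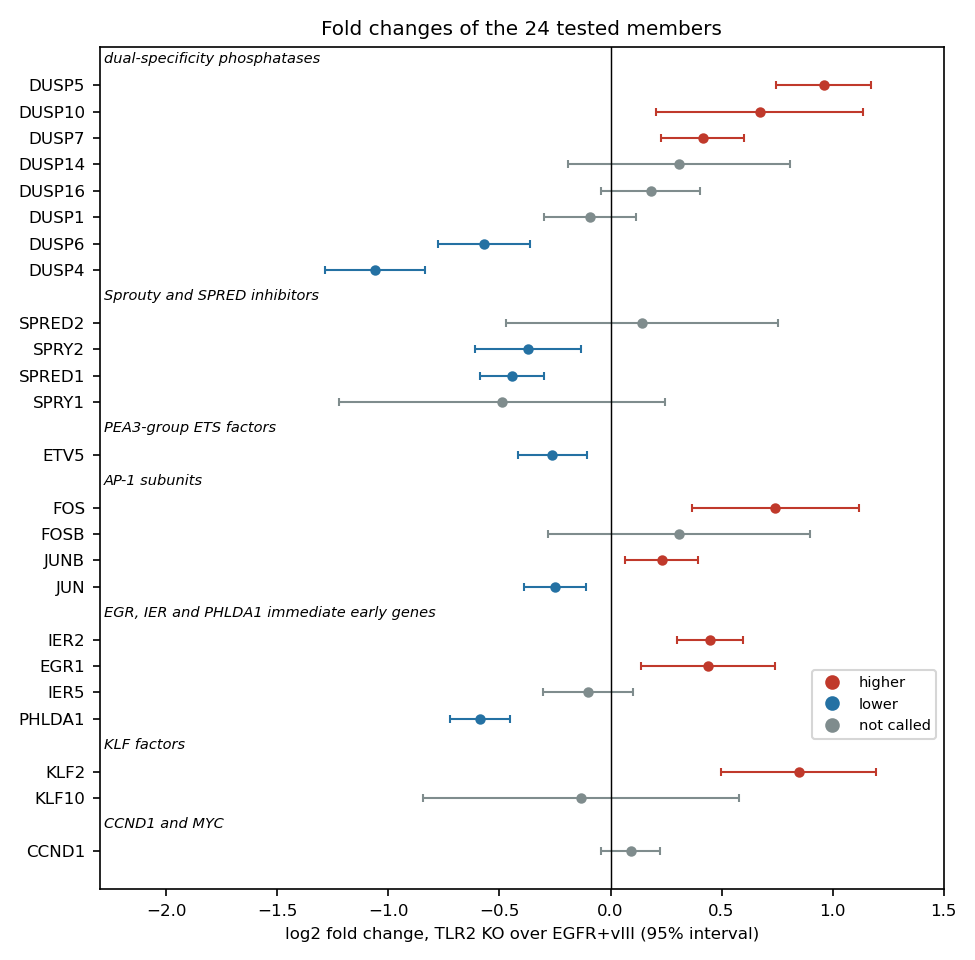
The log2 fold change of each tested member (horizontal axis, knockout over EGFR+vIII) is drawn with its 95% interval from the deposited SE, grouped by the role of the gene; red points were called higher, blue lower and grey were not called. The phosphatases span the widest range, from DUSP4 at -1.06 to DUSP5 at 0.96.

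Calls among the members began at a base mean of 100, and over all accessions they were more frequent with each step in base mean. At a base mean of 1000 and above 10 of 13 members were called, beside 48.6% of all accessions in that range of the authors' deposited table. Between 100 and 1000 the members gave 5 of 6, beside 37.9%, and under 100 they gave 0 of 5, beside 9.41%, in the authors' deposited table. The 5 tested members under 100 were DUSP14, SPRY1, SPRED2, FOSB and KLF10, whose median SE was 0.31.

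**Figure D2:**
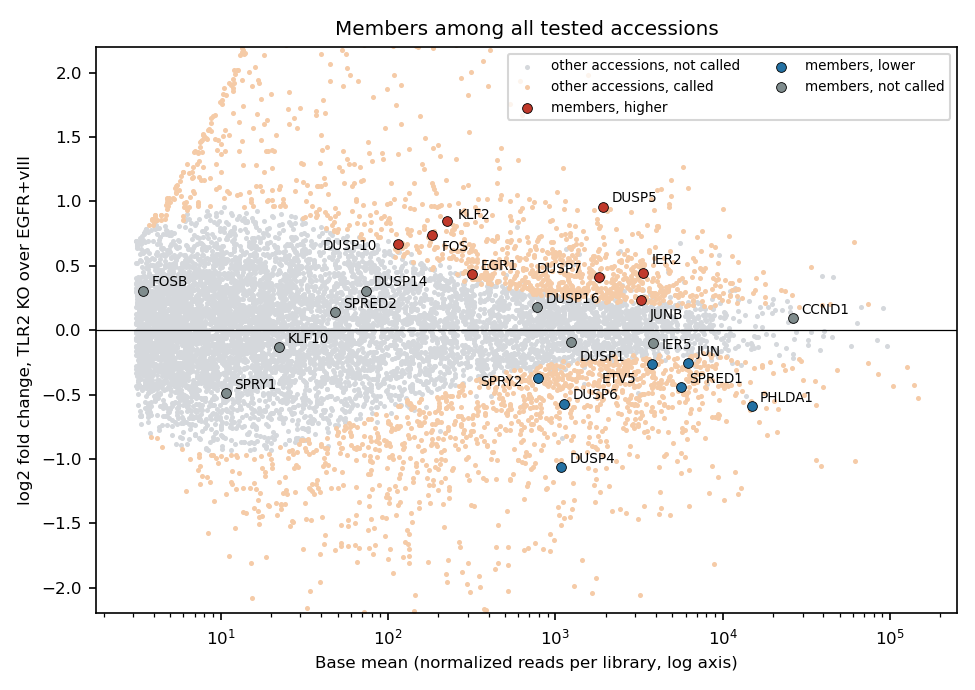
Each point is 1 accession, by its base mean (horizontal, log axis) and log2 fold change (vertical); pale orange points were called and pale grey were not, and members are drawn larger and named. The vertical axis ends at 2.2 on either side and leaves out 117 accessions. Members under a base mean of 100 all lie among the points that were not called.

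The dual-specificity phosphatases, which remove phosphate from both the threonine and the tyrosine that activate a MAP kinase, went both ways, also within subfamilies. Of 8 tested, 3 were higher, 2 lower and 3 not called, with a median log2 fold change of 0.24 in the authors' deposited table. Among the nuclear, inducible phosphatases, DUSP5 (chromosome 10, 110497907 to 110511533, GRCh38), which acts on ERK, rose and DUSP4, which acts on ERK and JNK, fell. For DUSP5 the authors' deposited table lists a log2 fold change of 0.96, an SE of 0.11 and an adjusted p of 4.12e-17. This corresponds to 1301 normalized reads per library in EGFR+vIII and 2567 in the knockout, computed from the authors' deposited table after undoing its shrinkage of fold changes. For DUSP4 the authors' deposited table lists a log2 fold change of -1.06, an SE of 0.12 and an adjusted p of 1.72e-18, or 1478 normalized reads in EGFR+vIII against 696 in the knockout. In EGFR+vIII the normalized reads of DUSP4 and DUSP5 were close, and in the knockout those of DUSP5 were the higher. Their transcripts are 5537 and 2557 bases long, so close reads do not mean equal levels. Per kilobase of transcript, the base mean of the authors' deposited table was 756 for DUSP5 and 196 for DUSP4. DUSP1, the third nuclear phosphatase with reads and one induced by stress as well as growth factors, had a log2 fold change of -0.09 in the authors' deposited table, with a 95% interval of -0.30 to 0.12.

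DUSP6 and DUSP7, which are cytoplasmic and ERK-selective, also went opposite ways. DUSP6 (chromosome 12, 89347235 to 89352501), the classical negative feedback phosphatase of ERK, fell from 1356 to 907 normalized reads, a change the authors' deposited table lists at -0.57 on the log2 scale (SE 0.10) with an adjusted p of 7.02e-07. DUSP7 (chromosome 3, 52048919 to 52056571) rose from 1560 to 2089, a change the authors' deposited table lists at 0.41 on the log2 scale (SE 0.09) with an adjusted p of 0.000111. Of the phosphatases that prefer JNK and p38, DUSP10 rose from 85.1 to 144 normalized reads, a change the authors' deposited table lists at 0.67 on the log2 scale (SE 0.24) with an adjusted p of 0.0244. DUSP16, of the same subfamily, had 0.18 (95% interval -0.04 to 0.40) in the authors' deposited table. DUSP14, a small phosphatase without the MAP kinase docking domain, had 0.31 (-0.19 to 0.81), an interval that still holds rises of over 1.5-fold in the authors' deposited table.

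The Sprouty and SPRED proteins, feedback inhibitors between the receptor and RAF, showed no rise that passed the test. Among the 4 of 6 with an adjusted p from DESeq2 in the authors' deposited table, 0 rose and 2 fell, and these 2 were also those with an unadjusted p under 0.05. SPRED1 (chromosome 15, 38252836 to 38357249), which brings the RAS inactivator neurofibromin to the membrane, fell from 6467 to 4739 normalized reads, a change the authors' deposited table lists at -0.44 on the log2 scale (SE 0.07) with an adjusted p of 2.07e-08. SPRY2 (chromosome 13, 80335976 to 80341126) fell from 897 to 688, a change the authors' deposited table lists at -0.37 on the log2 scale (SE 0.12) with an adjusted p of 0.0116. For 2 rarer accessions of SPRY2 the authors' deposited table gives base means of 6.45 and 6.38 beside log2 fold changes of 0.50 (SE 0.37) and 0.15 (SE 0.36). Weighting all 3 accessions by the inverse square of the deposited SE gave -0.25 for SPRY2, with an adjusted p of 0.0841 by a normal test. Shrinkage also limits the SE, to at most 0.38 over all accessions, so the rarer accessions weigh more here than their reads would give. The call of SPRY2 rests on the most abundant accession. SPRED2 and SPRY1 had log2 fold changes of 0.14 (-0.47 to 0.75) and -0.49 (-1.22 to 0.24) in the authors' deposited table, too wide to tell a fall like that of SPRED1 from no change. Per kilobase, the base mean of the authors' deposited table was 720 for SPRED1, 376 for SPRY2, 11.8 for SPRED2 and 4.56 for SPRY1. These values come from 1 accession each, of 1, 4, 2 and 4 listed, and do not rank the genes by expression.

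Of the ETS factors of the PEA3 group, which ERK signalling raises and which carry its transcriptional output, ETV5 alone could be tested. ETV5 (chromosome 3, 186046314 to 186109089) fell from 4122 to 3428 normalized reads, a change the authors' deposited table lists at -0.26 on the log2 scale (SE 0.08) with an adjusted p of 0.00532. The 95% interval of ETV5, -0.42 to -0.11, lies within a 1.5-fold change.

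A published score of MAPK pathway activity in tumours uses 10 genes, of which 8 belong to the set; it was brought in after the values were seen. Of its 7 tested genes, the authors' deposited table calls 5 lower and 1 higher, beside 25.1% of all tested genes called in either direction. At a base mean of 1000 and above, 48.6% of all tested accessions were called. The 5 were PHLDA1, SPRY2, DUSP4, DUSP6 and ETV5, whose values are given with their classes. They are members already counted above, so this count is not a separate result. The gene that rose was EPHA2, an ephrin receptor outside the set, which the authors' deposited table lists at 1.26 on the log2 scale (SE 0.30) with an adjusted p of 0.000273, its base mean being 50.8. CCND1 was not called, and SPRY4, ETV4 and EPHA4 were not tested.

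AP-1 is a dimer of a JUN and, often, a FOS protein, and its subunits shifted in opposite directions. Of 4 tested, 2 rose, 1 fell and 1 was not called in the authors' deposited table. FOS (chromosome 14, 75278828 to 75282230) rose from 133 to 231 normalized reads, a change the authors' deposited table lists at 0.74 on the log2 scale (SE 0.19) with an adjusted p of 0.000824. JUNB (chromosome 19, 12791486 to 12793315) rose from 2993 to 3520, a change the authors' deposited table lists at 0.23 on the log2 scale (SE 0.08) with an adjusted p of 0.0286. JUN (chromosome 1, 58780791 to 58784047) fell from 6780 to 5685, a change the authors' deposited table lists at -0.25 on the log2 scale (SE 0.07) with an adjusted p of 0.00265. The changes of JUN and JUNB were small: both 95% intervals lie within 1.5-fold. Per kilobase JUNB and JUN had similar base means in the authors' deposited table, 1789 and 1761, and FOS was far lower at 84.4.

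FOSB was barely measured, and its reads could be recovered library by library. Its base mean of 3.44 in the authors' deposited table has a single solution in whole reads, given in rising order within each group: 0, 0 and 5 in the EGFR+vIII libraries and 2, 2 and 11 in the knockout libraries. The groups overlap, and 1 library in each holds most of the reads. The authors' deposited table lists FOSB at 0.31 on the log2 scale (SE 0.30) with an adjusted p of 0.553. Shrinkage draws this fold change strongly towards 0 at so few reads.

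The other immediate early genes had 2 rises and 1 fall among 4 tested members of the authors' deposited table. EGR1 (chromosome 5, 138465479 to 138469303), a zinc finger factor that growth factors and stress induce within minutes, rose from 269 to 369 normalized reads, a change the authors' deposited table lists at 0.44 on the log2 scale (SE 0.15) with an adjusted p of 0.0222. IER2 (chromosome 19, 13150411 to 13154911) rose from 2834 to 3877, a change the authors' deposited table lists at 0.45 on the log2 scale (SE 0.08) with an adjusted p of 6.31e-08. PHLDA1 (chromosome 12, 76025447 to 76031776), a pleckstrin homology-like protein, fell from 17921 to 11877, a change the authors' deposited table lists at -0.59 on the log2 scale (SE 0.07) with an adjusted p of 3.12e-16. In reads per library the fall of PHLDA1 was the largest shift among the 22 members with a computed level. IER5, a regulator of heat shock factor, had a log2 fold change of -0.10 (95% interval -0.30 to 0.10) in the authors' deposited table.

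**Figure D3:**
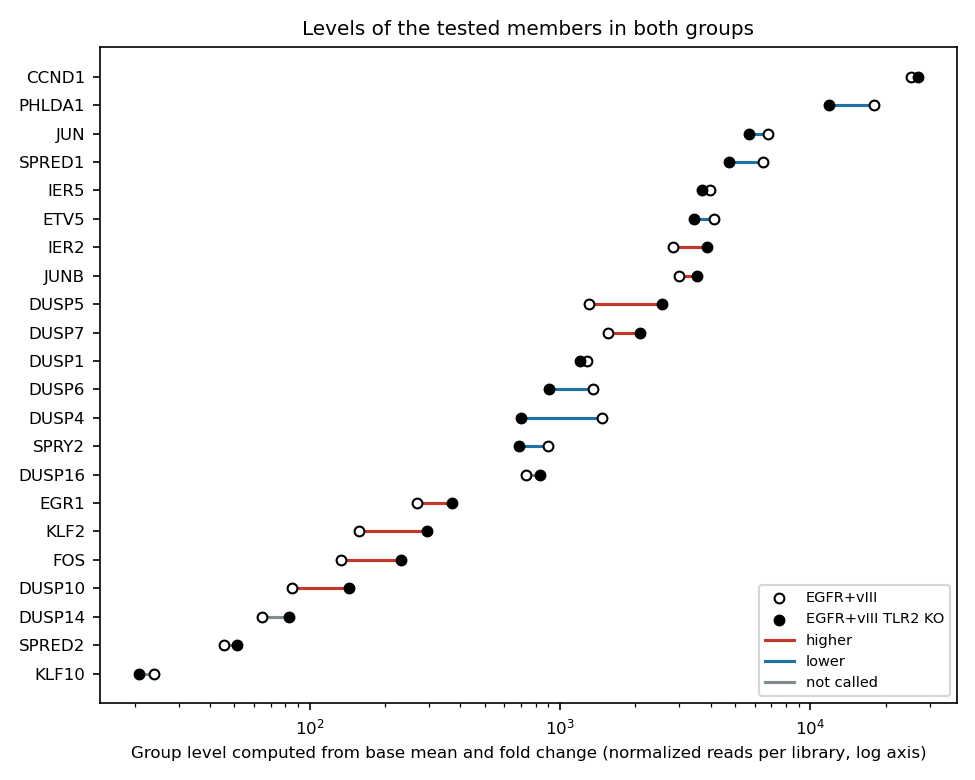
For each of 22 members with a base mean of at least 20, open points give the EGFR+vIII level and filled points the knockout level in normalized reads per library (log axis), computed from the deposited base mean and fold change with its shrinkage undone; line colour gives the call. No spread is drawn because the table has no value per library. CCND1 and PHLDA1 are the most abundant by reads, and DUSP4 and DUSP5 lie at 1478 and 1301 in EGFR+vIII and at 696 and 2567 in the knockout.

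The proximal promoters of immediate early and feedback genes are shown because these genes are controlled close to their start sites, through serum response factor at CArG boxes and CREB at cyclic AMP response elements. RefSeq windows (GRCh38.p14) of 250 bases before to 50 after the start were found for 28 of the 38 members. They are printed for 3 genes that rose (EGR1, chr5:138465229-138465528, plus strand; FOS, chr14:75278578-75278877, plus; JUNB, chr19:12791236-12791535, plus), 1 that was not called (DUSP1, chr5:172771146-172771445, minus) and 2 that fell (DUSP6, chr12:89352452-89352751, minus; SPRY2, chr13:80341077-80341376, minus). Capitals mark CArG boxes in EGR1, TGACGTCA in DUSP1, and TATAAA in FOS, JUNB and DUSP1.
EGR1: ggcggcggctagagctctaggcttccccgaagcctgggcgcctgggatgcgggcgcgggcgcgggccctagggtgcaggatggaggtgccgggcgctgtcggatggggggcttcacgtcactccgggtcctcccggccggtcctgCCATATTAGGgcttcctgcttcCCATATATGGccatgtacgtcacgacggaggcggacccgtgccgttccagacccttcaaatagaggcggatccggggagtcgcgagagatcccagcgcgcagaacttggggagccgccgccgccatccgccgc
FOS: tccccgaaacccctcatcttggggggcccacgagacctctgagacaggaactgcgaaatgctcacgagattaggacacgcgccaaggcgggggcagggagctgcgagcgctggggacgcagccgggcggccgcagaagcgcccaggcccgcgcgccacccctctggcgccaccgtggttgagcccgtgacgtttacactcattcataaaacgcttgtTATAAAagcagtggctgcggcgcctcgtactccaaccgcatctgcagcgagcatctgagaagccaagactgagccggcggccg
JUNB: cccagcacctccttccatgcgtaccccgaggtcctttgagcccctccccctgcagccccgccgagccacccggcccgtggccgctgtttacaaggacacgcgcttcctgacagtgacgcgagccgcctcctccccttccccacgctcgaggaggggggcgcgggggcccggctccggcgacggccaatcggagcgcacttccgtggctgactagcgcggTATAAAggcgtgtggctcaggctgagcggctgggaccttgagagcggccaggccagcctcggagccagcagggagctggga
DUSP1: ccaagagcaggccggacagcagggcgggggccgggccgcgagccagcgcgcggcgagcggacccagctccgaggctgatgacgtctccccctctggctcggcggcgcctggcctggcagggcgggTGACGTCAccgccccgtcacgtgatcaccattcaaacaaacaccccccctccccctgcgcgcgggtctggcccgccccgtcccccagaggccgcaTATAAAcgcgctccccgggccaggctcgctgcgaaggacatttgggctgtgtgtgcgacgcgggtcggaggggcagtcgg
DUSP6: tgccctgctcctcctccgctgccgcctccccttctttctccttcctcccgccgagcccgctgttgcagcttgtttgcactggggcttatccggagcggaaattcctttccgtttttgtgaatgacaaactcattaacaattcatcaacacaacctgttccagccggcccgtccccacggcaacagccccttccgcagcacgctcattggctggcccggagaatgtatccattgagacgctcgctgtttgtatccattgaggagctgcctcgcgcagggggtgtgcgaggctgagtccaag
SPRY2: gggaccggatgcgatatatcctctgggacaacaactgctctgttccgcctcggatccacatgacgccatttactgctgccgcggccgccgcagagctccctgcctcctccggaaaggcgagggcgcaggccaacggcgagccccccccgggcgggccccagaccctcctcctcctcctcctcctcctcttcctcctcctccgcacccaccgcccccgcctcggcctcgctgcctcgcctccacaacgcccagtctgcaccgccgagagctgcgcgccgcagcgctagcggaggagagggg

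The EGR1 window holds a pair of CArG boxes, CCATATTAGG and CCATATATGG, starting 105 and 83 bases before the start site. CArG boxes were found in 2 of the 28 members, EGR1 and EGR2, and in 1.60% of the 27305 genes with a window, reading both strands. FOS, JUNB and DUSP1 carry TATAAA 33, 31 and 30 bases before the start. That sequence was in 2 of 7 windows of members that rose (FOS and JUNB), in 0 of 5 that fell, in 3 of 7 that were not called, and in 14.0% of all genes with a window. TGACGTCA was in DUSP1, DUSP8 and JUND, beside 2.25% of all genes. The AP-1 sequence TGANTCA was in SPRED2 and SPRED3, beside 9.37%, and the kappaB site was in SPRED3, beside 7.09%. CCGGAAGT and GCGTGGGCG were in none of the 28, beside 4.95% and 0.960% of all genes. No motif searched was present in the windows of the 5 members that fell, a statement about these letters in this short window alone.

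Of the KLF zinc finger factors 2 of 4 could be tested. KLF2 (chromosome 19, 16324826 to 16328685), an early gene best known from endothelium and T cells, rose from 158 to 295 normalized reads, a change the authors' deposited table lists at 0.85 on the log2 scale (SE 0.18) with an adjusted p of 2.23e-05. KLF10, a gene induced by TGF-beta, had a log2 fold change of -0.13 (-0.84 to 0.58) at a base mean of 22.3 in the authors' deposited table, and an interval this wide says little.

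CCND1 (chromosome 11, 69641156 to 69654474) is the cyclin that carries ERK signals into the cell cycle. Its base mean in the authors' deposited table, 6069 per kilobase, was the highest among the tested members. The authors' deposited table lists CCND1 at 0.09 on the log2 scale (SE 0.07) with an adjusted p of 0.399. The 95% interval of CCND1, -0.04 to 0.22, leaves out a 1.5-fold change in either direction. The same holds for DUSP1, DUSP16 and IER5 among the members that were not called. For the other 5 not called, DUSP14, SPRY1, SPRED2, FOSB and KLF10, the interval reaches beyond 1.5-fold.

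Another 14 members carry no adjusted p. The authors' deposited table holds only zeros for 10 of them: DUSP2, DUSP8, SPRY4, ETV1, FOSL1, JUND, EGR2, IER3, KLF4 and KLF6. The remaining 4 rest on single reads. MYC, the growth-promoting transcription factor, has 2 reads in all, both in 1 knockout library, and EGR3 has 1 read, in 1 EGFR+vIII library. The most abundant accession of ETV4 has 0, 0 and 4 reads in EGFR+vIII and 0, 1 and 2 in the knockout, and that of SPRED3 has 0, 0 and 5 against 0, 1 and 3. These counts overlap between groups and no change was detectable with so few reads. Each of these genes has several accessions (MYC 2, EGR3 3, ETV4 5 and SPRED3 2), and their few reads are not a measure of low expression.

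A listing at 0 was more frequent for genes with several accessions, and for these it is not a measure of silence. Of all coding genes, 45.8% of those with 2 or more accessions were at 0, beside 30.0% of those with 1. Of the 19 members with 1 accession, 16 were tested and 3 (DUSP2, DUSP8 and IER3) are at 0 in the authors' deposited table. The reason for the 0 of these 3 was not tested. Of the 19 with 2 or more, 8 were tested and 7 are at 0. Over all coding genes, the share with an adjusted p in the authors' deposited table was 55.3% for those with 1 accession and 31.0% for those with 2 or more. Genes such as FOSL1 (6 accessions), JUND (2), KLF6 (4) and SPRY4 (4) were thus not measured in a way that allows a level, and whether the Sprouty and AP-1 families moved as a whole cannot be read from the members that were.

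The position of the members was compared with their neighbours, the tested genes whose starts lie within 1 Mb. DUSP4 lies in a stretch of chromosome 8 where its 8 neighbours had a median log2 fold change of -0.65, of which the authors' deposited table calls 4 lower and 0 higher. On the side of lower coordinates, the authors' deposited table lists KIF13B, a kinesin motor, at -0.83 (SE 0.08) and ZNF395 at -0.72 (SE 0.09). Relative to its neighbours within 1 Mb DUSP4 stood at -0.41, which takes no account of the error of their median. Within 0.5 Mb DUSP4 has 2 neighbours, too few for a relative value, and both were called lower. They are KIF13B and LOC101929470 (-1.52, SE 0.30), and their median of -1.17 lies below the -1.06 of DUSP4 itself. CCND1 showed the reverse: its 9 neighbours had a median of 0.58, and the authors' deposited table calls 4 of them higher and 0 lower, while CCND1 itself was near 0. Relative to them CCND1 was at -0.49 (adjusted p = 1.97e-11), a value that takes no account of the error of the neighbours' median. That median is the value of CTTN (SE 0.26), which was not called. Of the neighbours called higher, ANO1 and LINC02584 had base means of only 4.08 and 4.19. The part of the position in these values was not tested.

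EGR1 lies among 16 neighbours with a median of 0.18, and the authors' deposited table calls 5 of them higher and 1 lower. Relative to them the log2 fold change of EGR1 was 0.26 and its call was lost (adjusted p = 0.229). PHLDA1 has 7 neighbours with a median of -0.25, of which the authors' deposited table calls 4 lower and 0 higher, and stood at -0.33 relative to them. With the 4 neighbours within 0.5 Mb that median was 0.17, and PHLDA1 stood at -0.75 relative to them. For DUSP5, FOS, KLF2, IER2 and DUSP10 the neighbours' medians were 0.01, 0.02, -0.03, 0.01 and 0.00, and for DUSP6 and SPRY2 they were 0.09 and 0.21, against the direction of the member. JUNB and IER2, which both rose, lie 359 kb apart on chromosome 19, and between them the authors' deposited table calls PRDX2 (-1.06, SE 0.12), MAST1 (-1.21, SE 0.25) and CALR (-0.25, SE 0.07) lower and FARSA (0.67, SE 0.09) higher.

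**Figure D4:**
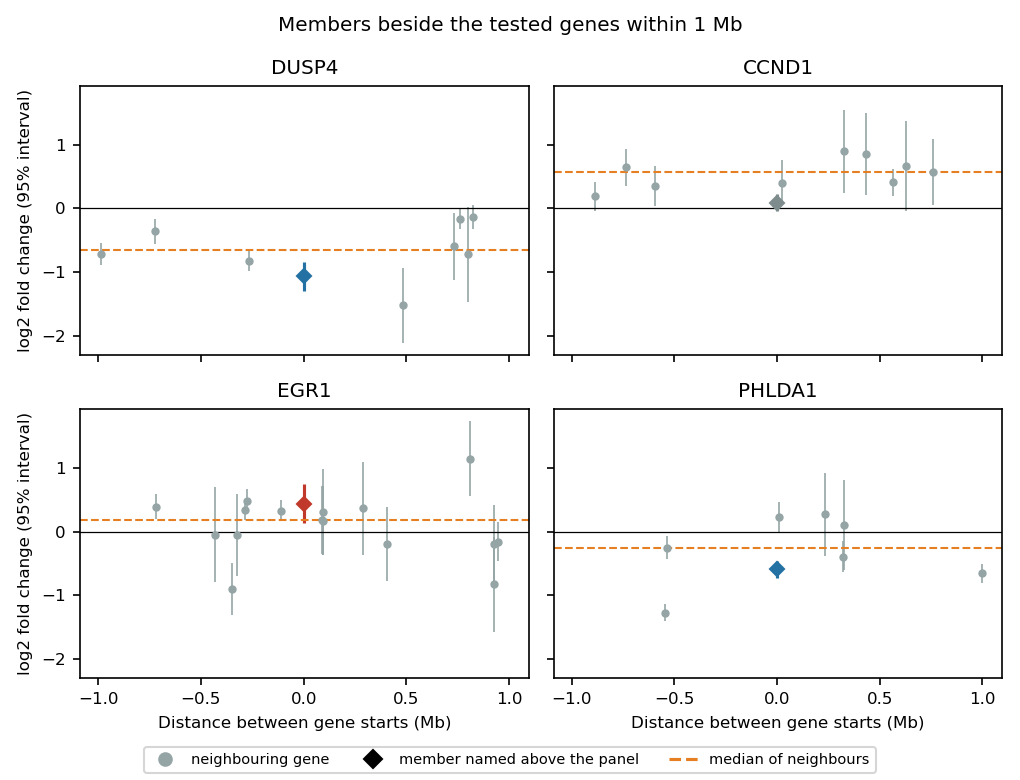
In 4 panels, log2 fold changes with 95% intervals are drawn against the distance between gene starts in Mb for DUSP4, CCND1, EGR1 and PHLDA1 (diamonds at 0) and their tested neighbours (grey). The dashed line is the neighbours' median, at -0.65, 0.58, 0.18 and -0.25. DUSP4 lies below a line that is itself below 0, and CCND1 lies below a line that is above 0.

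Beside the counts that follow for other genes of the pathway, 25.1% of all 9370 tested genes were called, with a median log2 fold change of 0.02. Among genes that carry the signal from RAS to ERK, and their scaffolds, the authors' deposited table calls 2 of 13 tested higher and 5 lower, with a median of -0.12. The authors' deposited table lists RRAS, a RAS relative, at -0.41 on the log2 scale (SE 0.11). It lists NRAS at 0.26 (SE 0.07) and the scaffold KSR1 at 0.75 (SE 0.27), and the adjusted p of KSR1 in the authors' deposited table is 0.0278. Inhibitors of the cascade other than the members had a median of -0.35, and of 10 tested the authors' deposited table calls 1 higher and 3 lower. The authors' deposited table lists LZTR1, an adaptor for RAS degradation, at -0.95 (SE 0.12), DAB2IP, a RAS GTPase activating protein, at -0.89 (SE 0.18) and ERRFI1, an inhibitor of EGFR, at 0.36 (SE 0.07).

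Of 7 kinases downstream of ERK, the DESeq2 test of the authors' deposited table calls 1 higher and 0 lower, with 2 at an unadjusted p under 0.05: MKNK2 (0.44, SE 0.11), which phosphorylates a translation factor, rose. Of 8 JNK and p38 kinases and activators, it calls 2 higher and 0 lower, with 3 at an unadjusted p under 0.05: the authors' deposited table lists GADD45B at 0.57 (SE 0.13) and MAP3K1 at 0.37 (SE 0.13). Of 7 other dual-specificity phosphatases, the authors' deposited table calls DUSP12 (0.44, SE 0.14) higher and 0 lower by DESeq2, with 2 at an unadjusted p under 0.05. Among serum response factor, its cofactors and other ETS factors, the authors' deposited table calls 1 of 8 higher and 1 lower, the related cofactors ELK4 (0.26, SE 0.10) and ELK3 (-0.24, SE 0.08). The shares called in these 4 lists, 14.3%, 25%, 14.3% and 25% in the order given, were no higher than the 25.1% of all tested genes.

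Relatives of the AP-1 subunits gave 4 rises and 1 fall among 7 tested genes of the authors' deposited table. The authors' deposited table lists MAF, a bZIP factor, at 1.39 on the log2 scale (SE 0.38) with a base mean of 12.9. FOSL2, a FOS-related AP-1 subunit, was lower, at -0.43 (SE 0.10) with an adjusted p of 0.000101 by the authors' deposited table. Other immediate early genes went both ways, and the authors' deposited table calls 3 of 16 higher and 4 lower. The authors' deposited table lists the small GTPase RHOB at 0.96 (SE 0.15) and ARC at 0.50 (SE 0.14), the antiproliferative BTG2 at -1.75 (SE 0.21) and the Notch target HES1 at -1.01 (SE 0.21). Target genes of AP-1 and ERK outside the set gave 4 of 14 higher and 1 lower, and the authors' deposited table lists the protease MMP3 at 1.01 (SE 0.10) and MMP10 at -0.97 (SE 0.37).

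**Figure D5:**
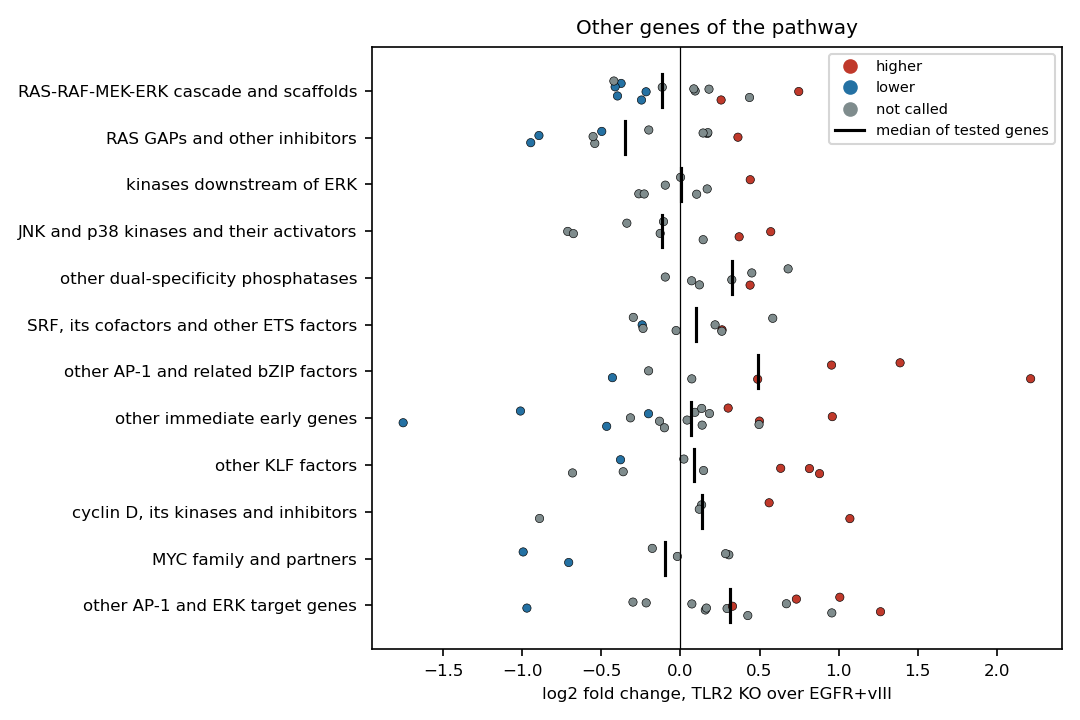
Each point is 1 tested gene of a list (rows) at its log2 fold change (horizontal), coloured by its call, and the black bar is the median of the list; the vertical scatter within a row has no meaning. The medians run from -0.35 for the inhibitors of the cascade to 0.49 for the other AP-1 and related factors.

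How many of the 15 calls stand depends on the null of the test. Against a change of more than 1.5-fold, DUSP4 and DUSP5 were called, beside 4.33% of all tested accessions. With the Wald scores divided by their central spread of 1.75, 6 members were called, beside 8.64% of all: DUSP4, DUSP6, SPRED1 and PHLDA1 lower, and DUSP5 and IER2 higher. The calls of DUSP7, DUSP10, SPRY2, ETV5, FOS, JUN, JUNB, EGR1 and KLF2 were lost there, at adjusted p between 0.0719 (KLF2) and 0.559 (JUNB). Other backgrounds were 17.8% of accessions called at an adjusted p under 0.01, and 26% and 25.4% of genes called relative to neighbours within 1 Mb and 0.5 Mb.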

How the data were processed

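RNA of 6 U87 libraries, 3 per group, was compared by the authors in 1 table. The submitters' processing notes name STAR, DESeq2 and hg38; the sources used here give no versions, counter, strandedness or annotation. Per the file headers, the authors deposited a base mean, a signal of abundance (read counts scaled by size factors and averaged over the libraries), a log2 fold change with its SE, a Wald score, a p-value and an adjusted p, which equals a Benjamini-Hochberg adjustment within 4.48e-07. The labels do not say that libraries came from separate cultures, so p-values may measure technical spread. A count test per library could not be run, and the authors' DESeq2 adjusted p under 0.05 was used over all 10303 tested accessions.

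Accessions were matched to symbols and GRCh38.p14 positions with a RefSeq gene table (98.8% of 67933), and each gene was represented by its accession of highest base mean. The base means sum to 11240272, the average depth per library in normalized reads, with size factors of 0.928 to 1.07 recovered from accessions with 1 read. Reads per library below a base mean of 4 were solved with a tolerance of 2e-08. Deposited fold changes are shrunk; undoing a normal prior of width 0.76 matched recovered reads in 298 low accessions (quartiles of the gap -0.04 and 0.04), and gave the group levels at a base mean of at least 20. Transcript lengths came from GENCODE 29. Neighbour values need at least 3 neighbours. Adjustment and the 1.5-fold test were tested on simulated data (Python 3.11.15, scipy 1.17.1).

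The members and lists were chosen with earlier results of these data known; the score genes, the TATAAA and kappaB motifs, the 0.5 Mb window, the undone shrinkage and the split by base mean were added after seeing the values. All members are named; of other lists, the called genes with the largest change, at most 2 in each direction, except that some are not reported here. Neighbours and score genes were named after their values were seen.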

Additional observations from a re-analysis of the deposited data

How the results depend on the processing

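Of the 15 calls, 8 higher and 7 lower, the test of a change above 1.5-fold left 1 higher and 1 lower (2 in all), Wald scores divided by their central spread left 2 and 4 (6 in all), and a threshold of 0.01 left 5 higher and 6 lower. Settings that did not use neighbours otherwise gave 7 to 8 higher and 6 to 7 lower. Relative to neighbours within 1 Mb, 21 of the 24 members had a value, with 7 called higher and 7 lower; the lower ones include CCND1, which is not among the 15, and SPRED1 had no value. Within 0.5 Mb, 17 had a value, with 6 called higher and 5 lower; the lower ones were DUSP6, ETV5, JUN, PHLDA1 and CCND1, and DUSP4, SPRY2, SPRED1 and DUSP10 had no value. JUNB lost its call when fold changes were centred on their median (adjusted p = 0.0506) and when every accession with a p-value was adjusted (0.0503). The second most abundant accession reversed DUSP4 (0.13, adjusted p = 0.875) and SPRY2 (0.50, adjusted p = 0.388), at base means of 6.86 and 6.45. CCND1 reversed relative to neighbours within 1 Mb (-0.49) and 0.5 Mb (-0.77). Within 0.5 Mb it has 3 neighbours, and their median of 0.86 is the value of LINC02584 (SE 0.33), at a base mean of 4.19. No paired analysis was possible because the table holds no value per library; for the same reason leaving out replicates, TMM scaling and edgeR were not run. Few reads were listed for the members under a base mean of 100, whose SE was 0.25 to 0.37. The reason for the few reads was not tested.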

Other observations

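Partners and relatives of CCND1, MYC and the KLF factors were also measured, beside 25.1% called among all tested genes. Of 5 tested cyclin D relatives, kinases and inhibitors, the DESeq2 test of the authors' deposited table calls 2 higher and 0 lower, with 3 at an unadjusted p under 0.05. CDK4, the kinase that CCND1 activates, rose by 0.56 (SE 0.07, adjusted p = 9.22e-13), and CCND2, a second D cyclin, rose by 1.07 (SE 0.35) at a base mean of 5.44 in the authors' deposited table. Among 6 MYC relatives and partners the DESeq2 test of the authors' deposited table calls 0 higher and 2 lower, and 2 have an unadjusted p under 0.05. Both are antagonists that compete with MYC for its partner MAX: MXD4 (-0.71, SE 0.12, adjusted p = 4.77e-08) and MXI1 (-0.99, SE 0.34, adjusted p = 0.0163), as the authors' deposited table lists them. Of 8 other KLF factors the authors' deposited table calls 3 higher and 1 lower. KLF3, a repressor, rose by 0.82 (SE 0.10), KLF5 by 0.88 (SE 0.32), and KLF12 fell by 0.38 (SE 0.09) in the authors' deposited table.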
